A study of Arabidopsis thaliana with 27 samples.

Results

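PIPK11 (AT1G01460) and AT59 (AT1G14420) are a pair of Arabidopsis thaliana genes known from pollen tubes, and their signals were followed through 10 groups of stamen samples. They were found by the array platform's pairing of probe sets with genes, which gave 1 probe set for each, so 2 of the 22810 probe sets of the array. The pair was proposed with its values on these arrays already known, so its own levels are given as a description and carry no test.

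PIPK11 encodes a phosphatidylinositol phosphate kinase of the PIP5K family. These kinases make a membrane lipid that gathers at the plasma membrane of the growing pollen tube tip, where it guides vesicle traffic and the actin cytoskeleton. AT59 encodes a pectate lyase, an enzyme that cuts the de-esterified pectin of plant cell walls, and pectate lyases are abundant products of late pollen in many plants. A pollen tube lays down and remodels a pectin-rich wall at its tip while that lipid marks the membrane beneath.

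The opr3 mutant lacks an enzyme that turns OPDA (12-oxophytodienoic acid) into the precursor of jasmonic acid, and its stamens do not mature without added jasmonate. Flower buds of opr3 plants grown on soil in continuous light were treated at stage 12 with 0.03% methyl jasmonate (the JA groups) or 0.03% OPDA, and stamens were taken at 0.5, 2, 8 and 22 h. Untreated opr3 stamens, taken at 0 h, were the controls, and 1 array held stamens of the untreated wild-type background Ws at stage 12, a plant with a working OPR3 gene. All groups except Ws carried opr3, and no mock-treated arrays are among the samples. Replicate 3 of JA at 2 h is titled opr2, although its treatment text names opr3. It stayed with the other JA arrays of that time.

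In all, 27 arrays were measured, 3 in each opr3 group except OPDA at 8 h, which had 2, and 1 in Ws. Replicates 1 and 2 of JA at 0.5 h held identical values at 100% of the probe sets and were counted as 1 sample, which left 25 opr3 arrays in 9 groups. Separate plants are not stated for the replicates, and p-values cover only array-to-array spread, which may be technical. Values are MAS5 signals on a linear scale, brought by the authors to a common target of 125 per array, and array medians lay between 47.5 and 56.9. A fitted difference is on the log2(signal + 16) scale, where a low signal understates a change, and the number of arrays limits its precision. The 4 listed stamen identity genes had no probe set with a single gene name, so the tissue label was not checked by them.

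PIPK11 was dim in untreated stamens and bright in stamens 22 h after either compound. After JA it gave signals of 32.3 and 15.1 at 0.5 h, of 35.2, 4.3 and 13.0 at 2 h, of 15.5, 184.4 and 24.9 at 8 h, and of 278.3, 598.1 and 229.2 at 22 h. After OPDA it gave 26.7, 60.9 and 5.7 at 0.5 h, 7.1, 43.8 and 24.4 at 2 h, 11.3 and 22.7 at 8 h, and 75.6, 361.2 and 162.7 at 22 h. In untreated opr3 stamens the signals were 4.8, 1.9 and 48.5, and the Ws array read 227.7. Every 22 h array of either compound thus stood above every untreated array, and the arrays of every other treated group overlapped the untreated ones. PIPK11 passed the signal filter used for testing through its 22 h arrays, 1 JA array at 8 h and 1 OPDA array at 0.5 h.

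AT59 was likewise highest at 22 h after either compound. After JA its signals were 70.3 and 29.9 at 0.5 h, 75.5, 75.8 and 41.9 at 2 h, 47.1, 463.7 and 78.2 at 8 h, and 965.3, 2154.2 and 845.5 at 22 h. After OPDA they were 3.6, 129.3 and 53.3 at 0.5 h, 36.6, 83.1 and 49.5 at 2 h, 3.7 and 77.0 at 8 h, and 297.5, 955.8 and 657.3 at 22 h. Untreated opr3 stamens gave 90.3, 39.0 and 165.4, and the Ws array read 745.9. Again all arrays at 22 h lay above all untreated arrays after both compounds, and no earlier group stood clear of them. Signals of different probe sets are not on a common scale, so the higher readings of AT59 do not rank the 2 transcripts.

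**Figure D1:**
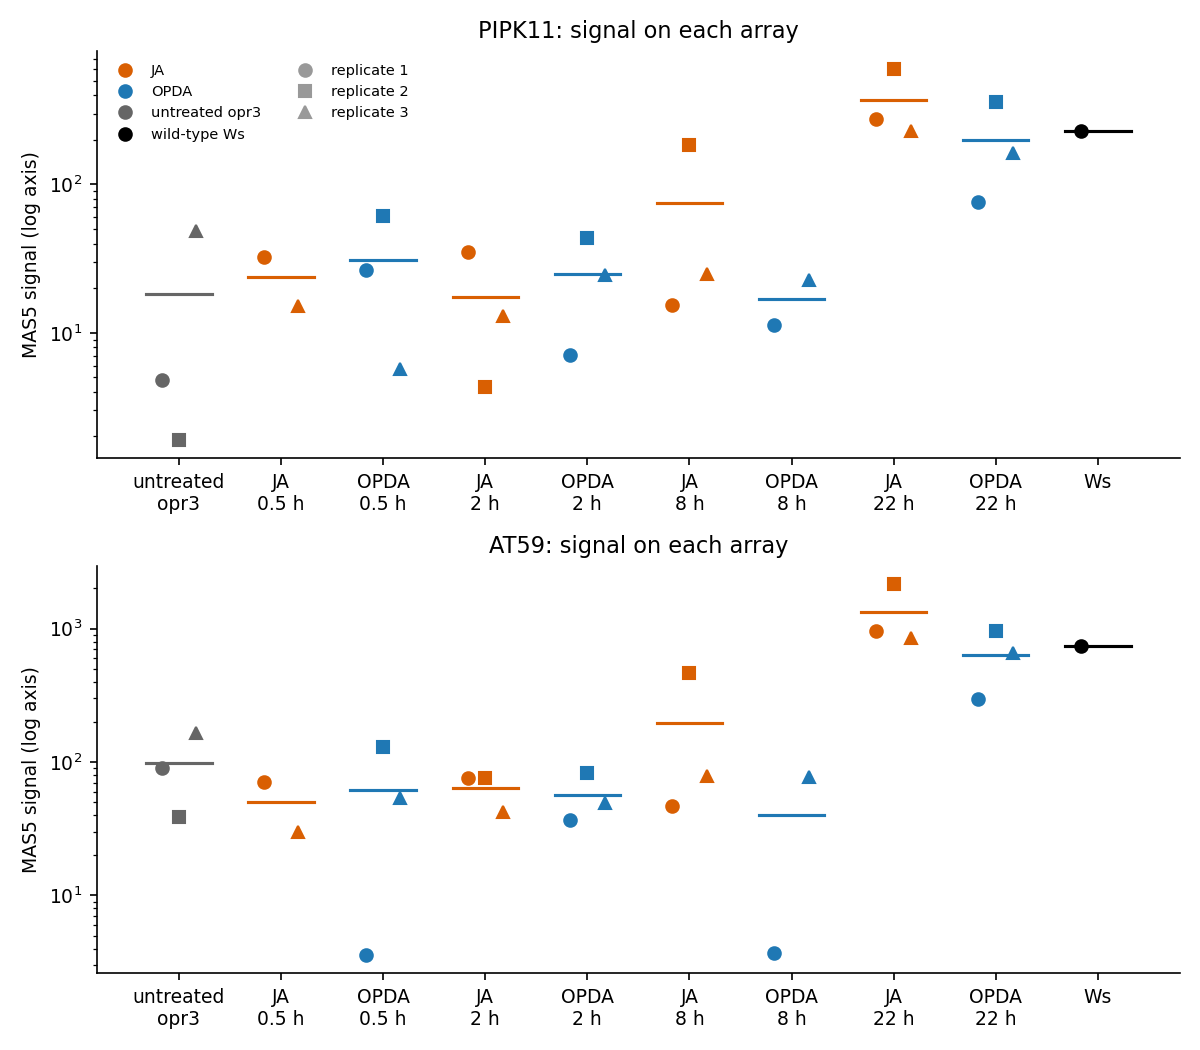
MAS5 signal (log axis) of PIPK11 (top) and AT59 (bottom) on each array, by group, with marker shapes for replicates 1 to 3 and a line at the group mean. In both panels the 22 h arrays of JA and OPDA sit above the 3 untreated arrays, and the square of JA at 8 h (184.4 for PIPK11, 463.7 for AT59) stands apart from the other arrays of its group.

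As group means, PIPK11 reached 368.5 ± 200.3 at 22 h after JA and 199.8 ± 146.4 at 22 h after OPDA, against 18.4 ± 26.1 in untreated stamens (SD, n = 3 each). No fold is given for PIPK11, since 1 untreated array (48.5) sets most of that mean and the others read 4.8 and 1.9. AT59 reached 1321.7 ± 723.5 after JA and 636.9 ± 329.6 after OPDA, against 98.2 ± 63.6 untreated (SD, n = 3 each), 13.5 and 6.48 times that mean. On the log2(signal + 16) scale PIPK11 was 3.62 (SE 0.65) above untreated after JA and 2.67 (SE 0.65) after OPDA. Without untreated replicate 3 these differences were 4.2 and 3.25. AT59 differed from untreated by nearly the same amounts, 3.59 (SE 0.73) and 2.53 (SE 0.73). In whole stamens a larger share of pollen in the sample and more RNA per pollen grain cannot be told apart. Untreated opr3 arrays are from 0 h only. In every difference from untreated, the treatment and the elapsed time therefore cannot be told apart either.

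The order of the means of the 9 opr3 groups was the same at the top for both genes. JA at 22 h came first, then OPDA at 22 h, then JA at 8 h with 74.9 ± 94.9 for PIPK11 and 196.3 ± 232.1 for AT59 (SD, n = 3). Below these, the PIPK11 means of the remaining 6 opr3 groups lay between 17.0 and 31.1, and the AT59 means between 40.4 and 98.2. The arrays of each group overlapped those of the next group in this order for both genes, so no neighbouring pair of ranks was separated, JA and OPDA at 22 h included. The single Ws array, at 227.7 for PIPK11 and 745.9 for AT59, stood between the means of JA and OPDA at 22 h. All 3 JA arrays at 22 h read above it for both genes, by little for PIPK11 in replicate 3 (229.2 in JA, 227.7 in Ws), while the OPDA arrays at 22 h lay on both sides.

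The step came between 8 and 22 h after both compounds. After JA the 22 h arrays exceeded the 8 h arrays by 2.47 (SE 0.65) for PIPK11 and 3.11 (SE 0.73) for AT59 on the log2 scale, and after OPDA by 2.50 (SE 0.73) and 3.78 (SE 0.81). At 8 h, JA replicate 2 alone was high in both genes, and without it the other JA arrays at 8 h read no more than 24.9 for PIPK11 and 78.2 for AT59. That array was also the highest of its group for 13 of 14 measured genes of a pollen tube list, by a median of 1.21 on the log2 scale, against -0.05 over all tested probe sets. Its part in the 8 h means was measured by leaving it out, and the cause of its position was not tested.

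Within groups the same arrays were high or low in both genes. Of the 7 groups with 3 distinct arrays, the array with the highest PIPK11 signal was also the highest for AT59 in 6, and the lowest was shared in 5. Replicate 2 was highest for both genes in JA at 8 h, JA at 22 h and OPDA at 22 h. This describes arrays that share 1 RNA sample each, and is not a second measurement of the response.

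Scan days differed between arrays, and all replicate 3 arrays were scanned on 1 day. Among arrays of the first scan day, JA at 22 h exceeded untreated by 4.99 for PIPK11 and 4.83 for AT59 on the log2 scale, and among arrays of the second day by 1.93 and 2.25. For OPDA at 22 h the same differences were 4.29 and 3.67 on the first day and 1.47 and 1.89 on the second. The direction was bound to be the same on both days, since all 22 h arrays lay above all untreated arrays, while the size differed. The untreated array of the second day was the brightest untreated array for both genes. JA exceeded OPDA at 22 h on each of 3 days, by 0.46 to 1.68 for PIPK11 and by 0.36 to 1.65 for AT59, with 1 array of each compound a day. At 22 h each of these days held 1 replicate number, so scan day and replicate cannot be told apart there. Over all arrays JA stood above OPDA at 22 h by 0.95 (SE 0.65) for PIPK11 and 1.05 (SE 0.73) for AT59, with overlapping arrays. Without OPDA replicate 1 these were 0.45 and 0.60, and without OPDA replicate 2 they were 1.47 and 1.41. JA at 8 h did not keep one direction against untreated, with 3.38 and 2.65 on the first day and -0.66 and -0.95 on the second.

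The family of each gene was then followed in the same fit, to see which relatives shared the late rise. A relative was called where its adjusted p in limma was under 0.05, with Benjamini-Hochberg adjustment over 14028 tested probe sets. The family lists hold loci assigned from general knowledge, since the files give loci without a description. Of 11 listed PIP5K loci, 3 had a probe set of their own name, namely PIPK11, AT1G10900 and AT1G60890. Of 26 listed pectate lyase loci, 23 had one and 16 passed the filter, AT59 and 15 others. The remaining 7 named loci did not reach a signal of 50 on 2 arrays and were not tested.

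Neither PIP5K relative was called at 22 h, though some alternatives called one. AT1G60890 gave 69.8, 102.7 and 95.8 at 22 h after JA and 55.3, 65.4 and 66.3 after OPDA, against 78.1, 74.1 and 68.4 in untreated stamens. Its JA arrays overlapped the untreated arrays, and its OPDA arrays were all lower. Its log2 difference was 0.22 after JA (95% interval -0.09 to 0.54, adjusted p = 0.25 in limma) and -0.19 after OPDA (adjusted p = 0.44 in limma). AT1G10900 stayed dim, with 36.9, 39.8 and 34.5 after JA and 23.9, 27.3 and 26.0 after OPDA, against 48.8, 44.4 and 34.4 untreated. Its difference was -0.13 after JA (95% interval -0.50 to 0.23, adjusted p = 0.56 in limma) and -0.48 after OPDA (adjusted p = 0.074 in limma). At an unadjusted p under 0.05, limma listed 0 of the 2 relatives after JA and 1, AT1G10900, after OPDA. Of 20 alternatives 3 called AT1G10900 lower after OPDA, namely the replicate block (-0.48), array weights (-0.52) and the fit without untreated replicate 3 (-0.58), each at an adjusted p = 0.044 in limma. Both JA intervals end below the 3.62 of PIPK11, and the difference between the genes was not tested because PIPK11 was chosen on its values. Between JA and OPDA at 22 h AT1G60890 gave 0.42 (adjusted p = 0.061 in limma), and the adjusted p lay between 0.019 and 0.26 over 20 alternatives, of which 6 called it, among them the fit without JA replicate 1.

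The pectate lyases split in direction at 22 h after JA. Of the 15 relatives of AT59, 4 rose and 5 fell, where 13.3% of all tested probe sets were called higher and 26.3% lower. Their median difference was 0.05, against -0.21 over all tested probe sets. After OPDA 3 rose and 1 fell, where 5.7% of all tested probe sets were called higher and 5.91% lower, with a median of 0.19 against -0.09 over all.

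The relatives that rose held 2 with the size of the AT59 difference. AT2G02720, chosen for naming after its values were seen, gave 888.5, 1723.4 and 889.6 at 22 h after JA and 274.9, 1034.1 and 562.9 after OPDA, against 101.4, 51.7 and 199.4 in untreated stamens. All treated arrays lay above all untreated ones. It rose by 3.23 after JA (adjusted p = 0.00033 in limma) and by 2.23 after OPDA (adjusted p = 0.026 in limma) on the log2 scale. AT5G15110, among the 6 pectate lyases with the highest mean signal, gave 2568.4, 3916.4 and 2204.8 after JA and 975.2, 2904.1 and 1483.7 after OPDA, against 349.1, 165.5 and 616.0 untreated. These groups did not overlap either, and it rose by 3.02 (adjusted p = 0.00059 in limma) and 2.23 (adjusted p = 0.025 in limma). In both genes replicate 2 was the highest array at 22 h after either compound, as it was in PIPK11 and AT59, and so was JA replicate 2 at 8 h, with 533.2 in AT2G02720 and 1871.2 in AT5G15110. Within scan days the JA difference of AT2G02720 was 4.29 and 2.07, and that of AT5G15110 was 3.93 and 1.81, larger on the first day as in AT59. The comparisons of JA and of OPDA with untreated share the untreated arrays.

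A pair of further pectate lyases stood higher after JA than after OPDA. AT5G48900 gave 1405.4, 2257.8 and 1212.2 at 22 h after JA and 502.9, 672.2 and 619.4 after OPDA, against 261.7, 279.7 and 506.7 in untreated stamens. JA arrays stood above those of both other groups, while 1 OPDA array fell within the untreated range. It rose by 2.18 after JA (adjusted p = 2.7e-07 in limma) and by 0.80 after OPDA (adjusted p = 0.03 in limma), and JA exceeded OPDA by 1.38 (adjusted p = 0.00014 in limma). AT3G07010, named after its values were seen, gave 669.7, 949.3 and 721.3 after JA and 396.4, 412.1 and 514.8 after OPDA, against 288.0, 245.6 and 428.7 untreated, with the JA arrays above all others. It rose by 1.26 after JA (adjusted p = 3.8e-05 in limma), gave 0.47 after OPDA (adjusted p = 0.13 in limma), and stood 0.79 higher after JA than after OPDA (adjusted p = 0.006 in limma). Of 21 alternatives 4 called it higher after OPDA. AT5G48900 was also called higher at 8 h after JA, by 1.09 (adjusted p = 0.003 in limma). So was AT3G07010, by 0.65 (adjusted p = 0.037 in limma), though 1 array, at 394.8, lay within its untreated range. PIPK11 and AT59, which carry no test, differed from untreated by 1.14 (SE 0.65) and 0.48 (SE 0.73) at that time, with overlapping arrays.

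AT1G30350 ran the other way. It gave 129.4, 40.4 and 165.3 at 22 h after JA and 336.0, 206.6 and 193.4 after OPDA, against 899.3, 916.3 and 709.6 in untreated stamens. The 3 groups did not overlap, with JA lowest and untreated highest. It fell by 2.90 after JA (adjusted p = 3e-06 in limma) and by 1.75 after OPDA (adjusted p = 0.0065 in limma), and it had fallen by 1.48 at 8 h after JA (adjusted p = 0.011 in limma). The Ws array, at 640.4, read below the untreated opr3 arrays for this gene.

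The remaining called relatives moved little. AT1G67750, AT3G53190, AT3G55140 and AT4G13710, named after their values were seen, fell by 0.62, 0.64, 0.61 and 0.40 after JA at 22 h on the log2 scale. The median of all tested probe sets was itself at -0.21, and 3 of the 4, all but AT3G55140, were not called once arrays were centred on their medians. Over all tested pectate lyase relatives, AT1G30350 included, the number that fell ranged between 3 and 5 with single arrays left out. It was 3 without JA replicate 2 or untreated replicate 2, where AT1G67750 and AT3G53190 were not called. Those fits had 4072 and 4594 calls over all tested probe sets, against 5552 in full. None of the 4 was called after OPDA. The brightest pectate lyase, AT3G01270, averaged 6978.0 ± 1303.4 after JA and 7894.8 ± 1752.2 after OPDA at 22 h, against 6059.2 ± 308.4 untreated (SD, n = 3 each), with differences of 0.19 (95% interval -0.25 to 0.63, adjusted p = 0.5 in limma) and 0.36 (95% interval -0.08 to 0.80, adjusted p = 0.29 in limma). AT5G55720 gave -0.49 after JA (adjusted p = 0.13 in limma) and was not called. AT1G04680 gave 0.52 (adjusted p = 0.069 in limma) and was not called either, but 6 of 21 alternatives called it higher, among them the replicate block (adjusted p = 0.0079 in limma), the scan day block (adjusted p = 0.011 in limma), the chip lot block (adjusted p = 0.028 in limma) and the fit without untreated replicate 3 (adjusted p = 0.012 in limma).

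**Figure D2:**
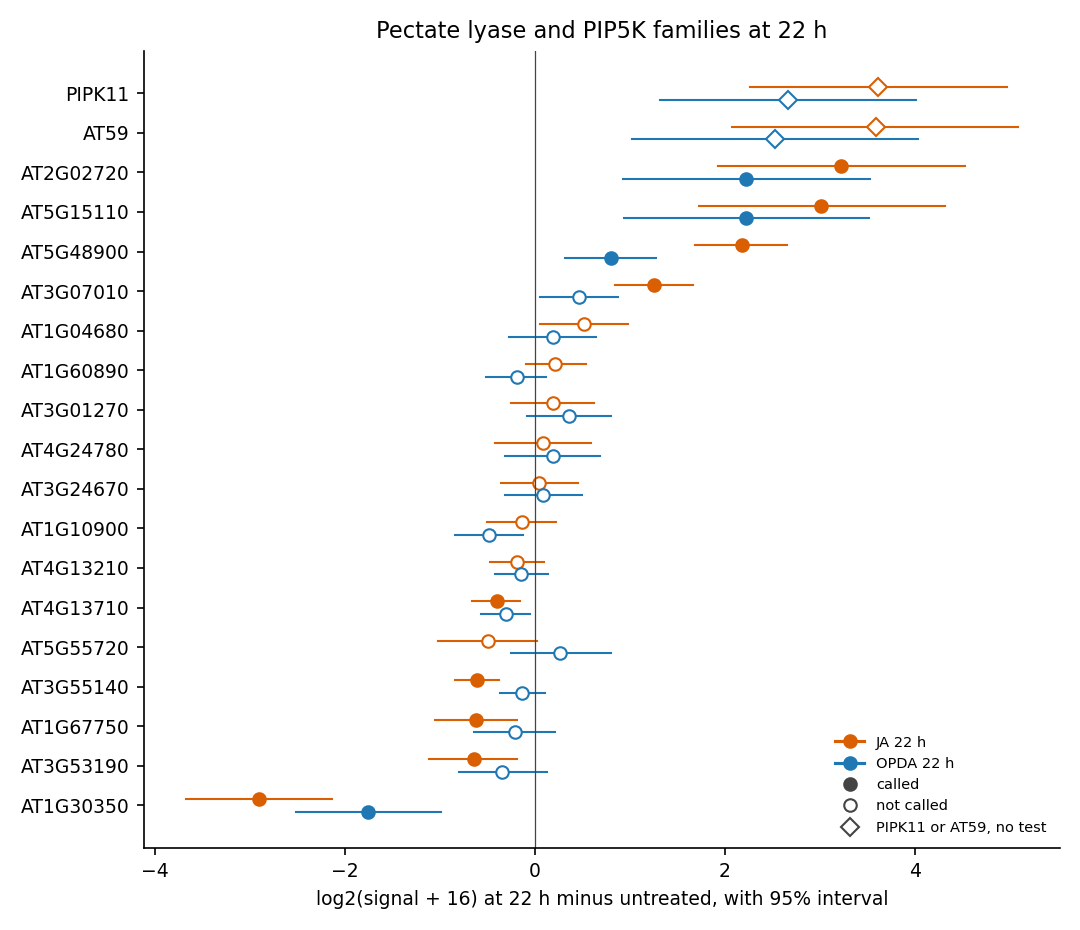
Difference of log2(signal + 16) at 22 h from untreated opr3 stamens, with 95% intervals, for each tested pectate lyase and PIP5K locus, JA above OPDA in each row and filled where called by limma at an adjusted p under 0.05. PIPK11 and AT59 are drawn as diamonds with intervals of the same fit. Their intervals are not a test, since both genes were chosen on these values. AT2G02720 and AT5G15110 lie nearest to them and AT1G30350 farthest below 0.

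JA and OPDA were then set against each other at 22 h. Of the 15 pectate lyases, 2 were higher after JA than after OPDA and 3 were lower, where 6.5% of all tested probe sets were higher and 12.2% lower. The higher ones were AT5G48900 and AT3G07010, and the lower ones were AT1G30350 at -1.15 (adjusted p = 0.032 in limma), AT5G55720 at -0.76 (adjusted p = 0.037 in limma) and AT3G55140 at -0.48 (adjusted p = 0.0039 in limma). AT2G02720, with a difference of 1.0 (95% interval -0.30 to 2.30, adjusted p = 0.31 in limma), and AT5G15110, with 0.79 (95% interval -0.50 to 2.09, adjusted p = 0.44 in limma), were not called, and their arrays overlapped. Their intervals hold both 0 and the 1.05 seen in AT59. Without JA replicate 2 at 22 h the count fell to 1 higher and 1 lower, and without OPDA replicate 1 to 2 higher and 1 lower. Calls over all tested probe sets fell as well, from 2624 to 1823 and 1829 in the same order.

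Earlier times gave few calls in the family. At 8 h after JA 2 pectate lyases were higher and 1 lower, where 4.77% of all tested probe sets were higher and 5.26% lower. Limma called 0 of the 15 at 0.5 h after JA, 2 h after JA, and 0.5, 2 and 8 h after OPDA, where 0.114%, 2.22%, 0.00713%, 0.0214% and 0% of all tested probe sets were called in either direction. At an unadjusted p under 0.05 limma listed 0, 3, 0, 0 and 1 of the 15 in these comparisons, and 357, 1337, 329, 286 and 391 of all 14028 tested probe sets. From 8 to 22 h after JA 4 pectate lyases rose and 3 fell, where 8.13% of all tested probe sets rose and 12.1% fell, and the 4 were AT2G02720 by 2.57 (adjusted p = 0.0051 in limma), AT5G15110 by 1.88 (adjusted p = 0.036 in limma), AT5G48900 by 1.08 (adjusted p = 0.0018 in limma) and AT3G07010 by 0.61 (adjusted p = 0.033 in limma). The difference between JA and OPDA did not move between 8 and 22 h by a called amount in any of the 15, where 5.36% of all tested probe sets were called, and limma listed 1 of the 15 at an unadjusted p under 0.05. For PIPK11 that change was -0.02 (SE 0.97) and for AT59 -0.67 (SE 1.09) on the log2 scale.

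The OPDA calls in the family changed with single arrays. The 3 pectate lyases that rose at 22 h after OPDA were 0 without untreated replicate 1, 0 without untreated replicate 2 and 0 without OPDA replicate 2, and 1 without OPDA replicate 3. They were 3 without OPDA replicate 1 and 4 without untreated replicate 3. AT1G30350 was called lower in each of these fits. In the same order they had 213, 377, 294, 1389, 1733 and 2164 calls over all tested probe sets. The differences themselves moved less, and without untreated replicate 1, where calls over all tested probe sets numbered 213 against 1628, AT5G15110 gave 2.27 (adjusted p = 0.1 in limma) and AT2G02720 gave 2.22 (adjusted p = 0.11 in limma). Without OPDA replicate 2 they gave 1.81 and 1.78.

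Beside the families, a list of 48 genes of pollen tube growth was followed, of which 14 had a probe set with a single gene name, and all 14 of those passed the filter. They include receptor kinases of tube integrity (ANX1, ANX2), actins (ACT11, ACT12) and actin-binding proteins (NET2D, PLIM2a, PLIM2b). At 22 h after JA 13 rose and 1 fell, where 13.3% of all tested probe sets were called higher and 26.3% lower, with a median of 1.62 against -0.21 over all. After OPDA 8 rose and 0 fell, where 5.7% were called higher and 5.91% lower, with a median of 1.05 against -0.09 over all. Earlier results of these data had shown several of these genes high at 22 h, so the list gives no independent support.

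By smallest adjusted p, 4 genes of the list are named. ANX2, a receptor kinase that keeps the tube from bursting, gave 338.2, 638.9 and 474.9 at 22 h after JA and 102.3, 344.6 and 244.7 after OPDA, against 36.6, 36.8 and 108.3 in untreated stamens. JA arrays cleared the untreated range, and 1 OPDA array did not. It rose by 2.79 (adjusted p = 3.4e-05 in limma) after JA and 1.67 (adjusted p = 0.018 in limma) after OPDA. Its partner ANX1 rose by 1.97 (adjusted p = 8.5e-05 in limma) and 1.66 (adjusted p = 0.005 in limma). NET2D, an actin-binding protein, rose by 1.41 (adjusted p = 2.5e-05 in limma) and 0.77 (adjusted p = 0.025 in limma). Only AtVEX1, a gene of the vegetative cell of pollen, fell in the list, by 1.30 after JA (adjusted p = 2.9e-05 in limma), while it gave 0.29 after OPDA (adjusted p = 0.37 in limma).

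Between the compounds at 22 h, where 6.5% of all tested probe sets were higher after JA and 12.2% lower, 1 of the 14 was higher after JA, NET2D by 0.64 (adjusted p = 0.038 in limma, and between 0.0088 and 0.15 over 21 alternatives), and 1 was lower, AtVEX1 by -1.59 (adjusted p = 3.5e-06 in limma). NET2D was not called without JA replicate 1, JA replicate 2, OPDA replicate 1 or OPDA replicate 3. ANX2 gave 1.12 (adjusted p = 0.079 in limma, and between 0.019 and 0.41 over 21 alternatives) and was called higher after JA in 7 of these, the replicate block (adjusted p = 0.019 in limma) and the scan day block (adjusted p = 0.023 in limma) among them.

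As in the pectate lyases, OPDA calls changed with single arrays, with 0 of 14 higher without untreated replicate 1, 1 without untreated replicate 2, 1 without OPDA replicate 2 and 5 without OPDA replicate 3, but 12 without OPDA replicate 1 and 10 without untreated replicate 3. Calls over all tested probe sets, 1628 in full, changed as well, to 213, 377, 294, 1389, 1733 and 2164 in the same order. The replicate block called 12 and the scan day block 13, while fitting only the groups compared left 2. Over all tested probe sets these gave 2791, 2770 and 469 calls. Without untreated replicate 1 the difference of ANX1 was 1.42 (adjusted p = 0.053 in limma) and that of ANX2 1.46 (adjusted p = 0.12 in limma), against 1.66 and 1.67 with all arrays. JA calls ranged from 11 to 13 higher when each array was left out. Over all tested probe sets those fits had 4072 to 5632 calls, against 5552 in full.

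The listed AGAMOUS-like factors, MADS-domain transcription factors of late pollen, were all 6 tested. After JA 4 rose at 22 h, where 13.3% of all tested probe sets were called higher, AGL29 by 1.55 (adjusted p = 0.0014 in limma), AGL65 by 1.40 (adjusted p = 0.0042 in limma), AGL66 by 1.31 (adjusted p = 0.0072 in limma) and AGL30 by 0.87 (adjusted p = 0.023 in limma). AGL29 was not called with a pseudocount of 1 (adjusted p = 0.064 in limma). After OPDA 1 rose, where 5.7% of all tested probe sets were called higher, AGL65 by 1.47 (adjusted p = 0.014 in limma), and without OPDA replicate 2 or either of untreated replicates 1 and 2 it was not called. AGL66 gave 1.12 after OPDA (adjusted p = 0.051 in limma) and was called in 10 of 21 alternatives, the replicate block (adjusted p = 0.0013 in limma), the scan day block (adjusted p = 0.0012 in limma) and the fits without OPDA replicate 1 or 3 among them. AGL30 gave 0.64 after OPDA (adjusted p = 0.17 in limma) and was called in 2, the replicate block (adjusted p = 0.01 in limma) and the scan day block (adjusted p = 0.0014 in limma). Without JA replicate 2 at 22 h the JA count fell to 2, while calls over all tested probe sets fell from 5552 to 4072. The other 2, AGL18 and AGL104, were not called in either comparison, and are named only because they complete the list.

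**Figure D3:**
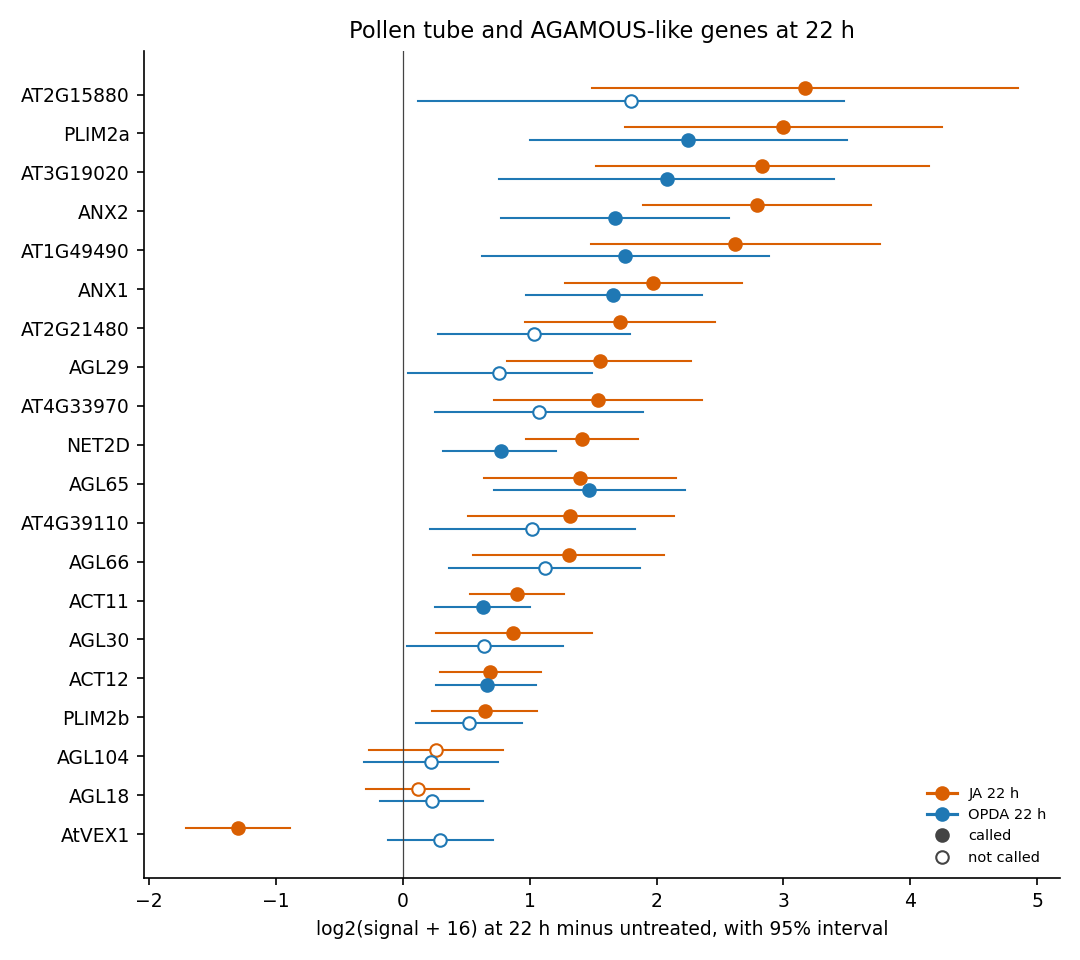
Difference of log2(signal + 16) at 22 h from untreated opr3 stamens, with 95% intervals, for 14 pollen tube genes and 6 AGAMOUS-like factors, JA above OPDA in each row and filled where called. Differences of 17 genes are called higher after JA, and AtVEX1 alone is called lower.

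The wider pathways were hardly covered by named probe sets. Of 19 listed genes of phosphoinositide metabolism 1 was measured, AT3G55940, which fell by 0.40 after JA (adjusted p = 0.039 in limma), gave 0.32 after OPDA (adjusted p = 0.17 in limma) and stood lower after JA than after OPDA by -0.71 (adjusted p = 0.0012 in limma). Its JA call was lost under quantile normalization (adjusted p = 0.2 in limma), under median centring (adjusted p = 0.22 in limma), and without untreated replicate 1 or 2 or JA replicate 2 or 3. Of 14 listed genes of pectin modification 1 was measured, ADPG1, a polygalacturonase of anther opening. ADPG1 gave 1816.3, 1539.8 and 1299.1 at 22 h after JA and 401.2, 457.2 and 343.9 after OPDA, against 98.7, 156.3 and 223.7 untreated, 3 groups with no overlap. It rose by 3.21 after JA (adjusted p = 5.4e-08 in limma), and it had already risen by 2.79 at 8 h (adjusted p = 1.4e-06 in limma). AT59, which carries no test, differed by 0.48 (SE 0.73) at 8 h after JA.

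Some markers of other cells also changed at 22 h, more of them after JA than after OPDA. Of all tested probe sets, 26.3% were called lower after JA and 5.91% after OPDA. Of the listed tapetum markers, 4 of 19 had a named probe set and 2 were tested, and ATA27 gave 0.8, 2.8 and 11.5 at 22 h after JA and 35.6, 7.1 and 9.3 after OPDA, against 655.2, 557.4 and 149.9 untreated. Both treated groups lay below the untreated arrays and overlapped each other. ATA27 fell by 4.28 after JA (adjusted p = 5.1e-05 in limma) and by 3.68 after OPDA (adjusted p = 0.0035 in limma). AT1G75920 fell by 2.12 after JA (adjusted p = 0.00025 in limma) and was not called after OPDA, at -1.02 (adjusted p = 0.099 in limma), though 4 of 21 alternatives called it lower. Of 8 green tissue markers 3 were measured, and RCA, LHCB4.2 and LHCB4.3 fell after JA by 0.80, 1.43 and 0.69, with the largest adjusted p = 0.00066 in limma. After OPDA LHCB4.2 fell by 0.64 (adjusted p = 0.028 in limma), a call kept in 16 of 21 alternatives. RCA, at -0.04 (adjusted p = 0.91 in limma), and LHCB4.3, at 0.15 (adjusted p = 0.43 in limma), were not called after OPDA. The sperm cell histone gene MGH3, 1 of 6 listed sperm markers, gave 0.47 after JA (adjusted p = 0.089 in limma) and 0.52 after OPDA (adjusted p = 0.12 in limma). MGH3 was called higher in 6 of 21 alternatives after JA and in 2 of 21 after OPDA. Of 6 carpel and ovule markers 2 were measured, INO with -0.24 (adjusted p = 0.5 in limma) and SPT, which fell by 0.75 after JA (adjusted p = 0.0029 in limma). After OPDA neither was called, INO with -0.52 (adjusted p = 0.22 in limma) and SPT with 0.03 (adjusted p = 0.94 in limma). The summed signal of the 4 named tapetum markers ran between 22.9 and 78.7 after JA and between 77.5 and 196.7 after OPDA, against 279.0 to 856.4 untreated, and read 1037.4 in Ws. For the 3 green tissue markers it ran between 1045.4 and 1152.7 after JA and between 1847.8 and 2018.2 after OPDA, against 1815.7 to 2042.5 untreated. For the 2 carpel and ovule markers it ran between 83.3 and 127.7 after JA and between 120.1 and 186.7 after OPDA, against 159.5 to 176.2 untreated, and MGH3 between 495.0 and 863.6 and between 532.2 and 834.3, against 442.5 to 478.9. Signals at 0 numbered 0 in these groups. The part of these cells in the levels of PIPK11 and AT59 was not tested.

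Finally, the genes whose pattern was most like each of the pair were found by Pearson correlation over the 9 opr3 group means, among 4829 named probe sets that reached a mean of 100 in a group. Each correlation compares genes read on the same arrays, and the 22 h groups held the highest means of PIPK11 and AT59. The value of r is therefore a description with n = 9. PIPK11 was most like BZIP34 (r = 0.995), AT1G75180 (0.994), AT2G40990 (0.991), AT5G45840 (0.990), AT2G37670 (0.988) and AT2G31800 (0.986). BZIP34, a bZIP transcription factor of pollen, averaged 166.2 ± 57.2 at 22 h after JA and 106.0 ± 65.9 after OPDA, against 20.2 ± 13.4 untreated (SD, n = 3 each). Its difference of 2.35 after JA was smaller than the 3.62 of PIPK11 on the same scale, as were those of the other 5, which lay between 1.20 and 2.70.

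AT59 was most like AT5G15140 (r = 0.998), AT3G26880 (0.997), AT3G06830 (0.997), AT5G27980 (0.996), AT4G25780 (0.996) and AT3G20530 (0.996). AT5G15140 averaged 2237.7 ± 856.5 at 22 h after JA and 1105.9 ± 612.0 after OPDA, against 237.5 ± 127.9 untreated (SD, n = 3 each). Of its 6 nearest genes, differences after JA at 22 h ran between 2.28 and 3.64, and AT59 with 3.59 lay near the top of them.

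Many genes had such a pattern. A correlation of at least 0.95 was reached by 196 of the 4829 (4.06%) for PIPK11 and by 265 (5.49%) for AT59. PIPK11 and AT59 correlated with each other at r = 0.959, which placed AT59 only at rank 136 among genes like PIPK11, and PIPK11 at rank 227 among genes like AT59. Up to 8 h the differences from untreated lay between 0.11 and 1.14 for PIPK11 and between -1.25 and 0.48 for AT59 on the log2 scale, with SEs of 0.65 to 0.81 and every group overlapping untreated, and a difference between the 2 genes was not tested.

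**Figure D4:**
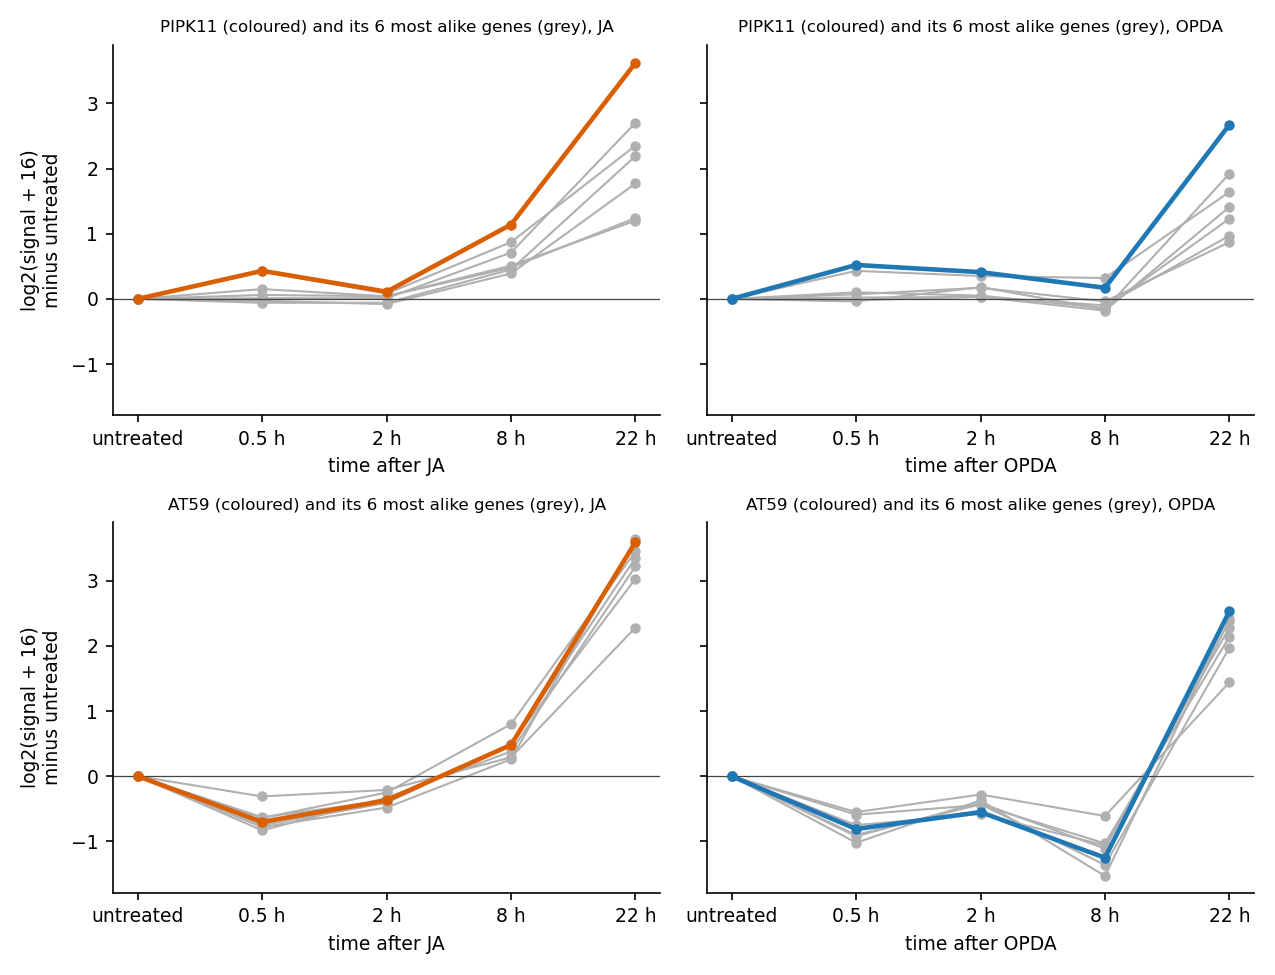
Group means of log2(signal + 16) minus the untreated mean, by time after JA (left) and OPDA (right), for PIPK11 (top) and AT59 (bottom) in colour with their 6 most alike genes in grey. All lines are highest at 22 h, PIPK11 stays between 0.11 and 0.52 up to 2 h, and the AT59 panels dip to -1.25 for AT59 itself at 8 h after OPDA.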

How the data were processed

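RNA of stamens was measured on 1-colour Affymetrix ATH1 arrays, 1 per sample. The intensity values were deposited by the authors as MAS5 signals scaled to a target of 125, per the labels, with MAS5 named in the submitters' processing notes. No version, detection call or background setting is given in the sources used here. From these, log2(signal + 16) was computed, and testing was limited to the 14028 of 22810 probe sets that reached 50 on 2 or more arrays. For 15 comparisons, limma 3.58.1 (R 4.3.3; lmFit, eBayes with an intensity trend) fitted group means to 25 arrays in 9 groups, with 16 residual degrees of freedom. P-values were two-sided, from limma, and Benjamini-Hochberg adjusted for each comparison separately, with calls made below 0.05. The identical JA arrays at 0.5 h were counted once, and the Ws array stayed outside the fit. The pipeline was tested on simulated data.

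Names came from the platform annotation and RefSeq symbols (TAIR10.1 table): 13513 probe sets had 1 gene, 503 several and 8794 none, and 13436 of the first matched RefSeq. Genes outside a single pairing are unnamed here. PIPK11, AT59 and the gene lists were chosen with earlier results of these data known. In the family and pathway lists the 6 tested genes with the highest mean signal were named, in the pollen tube, AGAMOUS-like and marker lists up to 4 with the smallest adjusted p for JA at 22 h, and for each of the pair the 6 genes most like it. Protein identity and sequences were not analysed here. Scan day and chip lot came from the array records; OPDA replicate 1 at 8 h and Ws have none here, so the 2 block fits that used them left that OPDA array out. Alternatives changed the pseudocount, filter, scaling, blocks, weights, groups and arrays.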

Additional observations from a re-analysis of the deposited data

Results flagged for a closer look

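In 2 listed genes the difference between JA and OPDA changed between 8 and 22 h by the interaction term of the limma fit. For AtVEX1 the change was -1.86 on the log2 scale (adjusted p = 0.00031 in limma), from a JA over OPDA difference of -1.59 at 22 h and 0.26 at 8 h. For AT3G55940 the change was -1.0 (adjusted p = 0.0072 in limma), from -0.71 at 22 h and 0.29 at 8 h. OPDA at 8 h held 2 arrays. For PIPK11 and AT59 the same change was within its standard error, at -0.02 (SE 0.97) and -0.67 (SE 1.09).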

How the results depend on the processing

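Over 9 results and 24 alternatives, 174 of 186 recomputed values stayed within 1 pooled SD (0.91 for PIPK11 and 1.02 for AT59 on the log2 scale) or, for counts, within 1.5 times, and 12 moved further. The PIPK11 difference from untreated on the log2 scale depended on the pseudocount, as 5.17 after JA and 4.14 after OPDA with 1, and 2.34 and 1.57 with 64, since its untreated signals are low. In every alternative that kept the gene, PIPK11 and AT59 stood above untreated at 22 h. That direction was largely fixed beforehand, since all 22 h arrays lay above all untreated arrays. JA stood above OPDA by 0.45 at least, and alternatives that change only the test leave these differences as they are. Both genes were chosen on these values, so this is a description and no separate check. The filter at a mean signal of at least 100 left out PIPK11, whose mean was 91.5. JA over OPDA at 22 h called 5 of 17 tested relatives in full. It called 3 of 25 with no filter (more probe sets tested) and 2 of 17 with the compared groups alone. Over all tested probe sets these gave 2356 and 1601 calls, against 2624 in full. With an array left out, relatives called ran between 7 and 9 for JA over untreated (9 in full), 1 and 6 for OPDA over untreated (4), and 2 and 6 for JA over OPDA (5). Over all tested probe sets, calls ran between 4072 and 5632 (5552 in full), 213 and 2164 (1628), and 1823 and 2529 (2624) in the same order. Median centring, the chip lot block, keeping both identical arrays and leaving out JA replicate 2 at 8 h were chosen after seeing the data.

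Another scaling moved the median of all tested probe sets. For JA over untreated at 22 h it was -0.21, and -0.06 after median centring, so the small falls are relative to a shifted centre. The share of calls that were higher was 33.5% for that comparison, 45.1% with the 75th percentile and 50.4% with median centring. For OPDA over untreated it was 49.1% against 59.9% with median centring, and for JA over OPDA 34.8% against 44.9% with the 75th percentile and 46.1% with median centring. Under the 75th percentile or median centring the pectate lyases called for JA over untreated were 5 higher and 2 lower, against 4 higher and 5 lower.

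With the replicate block the relatives called were 10, 6 and 6 in the same order of comparisons, and over all tested probe sets OPDA over untreated had 2791 calls, against 1628. Arrays with the same number deviated together by a median r of 0.28 and arrays with other numbers by -0.17, 22 of 25 arrays correlated best with their own number, and 77 of 93 such pairs passed 0.1, 5 of 9 among the untreated and 22 h groups. Arrays of the same number thus shared part of their deviation, though not in every pair. The main fit left the number out, and the block gave more calls. After OPDA these included AGL66, AGL30, AT2G21480 and AT4G39110, which the main fit did not call. With scan day as a block the counts were 10, 6 and 7, and 6408, 2770 and 3242 over all tested probe sets. At 22 h scan day followed the replicate number, so these blocks are not separate checks.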
